A study of Mus musculus with 23 samples.

Results

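The day-night difference of gene expression in wild-type tibialis anterior muscle was compared between muscles injected with 6-OHDA and sham muscles. 6-OHDA (6-hydroxydopamine) is a toxin that enters nerve endings through the noradrenaline transporter and destroys sympathetic fibres. All 15 wild-type libraries of the series were used, of 23 in the table, and they form 4 groups: 4 libraries of 6-OHDA muscle at ZT12, 4 of 6-OHDA muscle at ZT0, 3 of sham muscle at ZT12 and 4 of sham muscle at ZT0. ZT (zeitgeber time) counts hours from lights on, so ZT0 is the start of the light phase and ZT12 its end. The measure is the interaction, the ZT12 minus ZT0 difference in 6-OHDA muscle minus the same difference in sham muscle, on the log2 FPKM scale (fragments scaled by exon length and library total). It was tested for the 10907 of 12171 protein-coding genes in the table that had an FPKM of at least 1 in 2 or more of the 15 libraries.

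All mice were female C57BL/6 animals with free access to food. Treated muscles received repeated intramuscular injections of 50 mg/kg 6-OHDA in ascorbic acid under isoflurane and were taken after a recovery period. Sham muscle was muscle that had not been injected, so 6-OHDA, its vehicle, the needle and the anaesthesia cannot be told apart in these groups. Mice were 12 to 15 weeks old for 6-OHDA ZT12, 15 to 16 weeks for 6-OHDA ZT0, 12 to 18 weeks for sham ZT12 and 13 to 18 weeks for sham ZT0. The labels do not say whether an injected and an uninjected muscle came from the same mouse, or which libraries came from separate mice, so p-values measure the spread between these libraries. Muscles of 1 mouse would have the same age. Sham and 6-OHDA libraries had no age in common at ZT0, and only 12 weeks in common at ZT12. Within wild-type 6-OHDA muscle, ZT12 and ZT0 libraries had only 15 weeks in common, with means of 13 and 15.5 weeks. Age and time can thus be told apart only in part in that arm, and this enters the interaction. The other 8 libraries came from RE-RE mice, 2 in each group of treatment and time. RE-RE mice were 10 and 11 weeks old for sham ZT0 and 11 weeks for sham ZT12. They were 12 and 16 weeks old for 6-OHDA ZT0 and 15 and 18 weeks for 6-OHDA ZT12. Age and treatment thus cannot be told apart in that genotype. Both Bmal1 alleles of these mice are stopFL, and the transgenes Syt10-Cre and Hsa-Cre, of which Hsa-Cre acts in skeletal muscle, are each present as -/tg. They enter below only where named.

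As background, muscle holds a cell-autonomous clock in which BMAL1 (gene Arntl) and its partners CLOCK and NPAS2 drive the period, cryptochrome and REV-ERB repressors that act back on them. Sympathetic fibres run along the arteries of muscle and release noradrenaline, which acts through adrenergic receptors and cAMP on CREB, a factor that induces immediate early genes such as the Nr4a receptors. Endothelial cells lining the vessels answer blood flow with the factors KLF2 and KLF4. A gene with an interaction near 0 had about the same estimated day-night difference in 6-OHDA muscle as in sham muscle. The confidence interval gives how far these differences may be apart.

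The 15 libraries held 25.5 to 36.1 M reads by recovery from the steps of the FPKM values. Markers of fast skeletal muscle led every group, while those of macrophages and matrix were higher in both 6-OHDA groups. Transcripts of the mitochondrial genome took 13.2% ± 2.32 of reads in 6-OHDA ZT12, 9.57% ± 2.57 in 6-OHDA ZT0, 17.9% ± 2.56 in sham ZT12 and 18.6% ± 2.27 in sham ZT0 (SD, n = 4, 4, 3 and 4). The 18 macrophage genes summed to 177.2 to 464.5 FPKM in 6-OHDA ZT12, 257.1 to 621 FPKM in 6-OHDA ZT0, 31.5 to 56.1 FPKM in sham ZT12 and 35.9 to 82.6 FPKM in sham ZT0. On their means 6-OHDA ZT12 held more mitochondrial reads and a lower macrophage sum than 6-OHDA ZT0, with overlap in both, and the part of this in each interaction was not tested. Replicate 6 of 6-OHDA ZT12 held 9.90% mitochondrial reads, within the range of 6-OHDA ZT0, and replicate 4 of 6-OHDA ZT0 held 13.1%, within the range of 6-OHDA ZT12. In whole muscle, fewer cells of a type and less RNA per cell cannot be told apart.

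**Figure D1:**
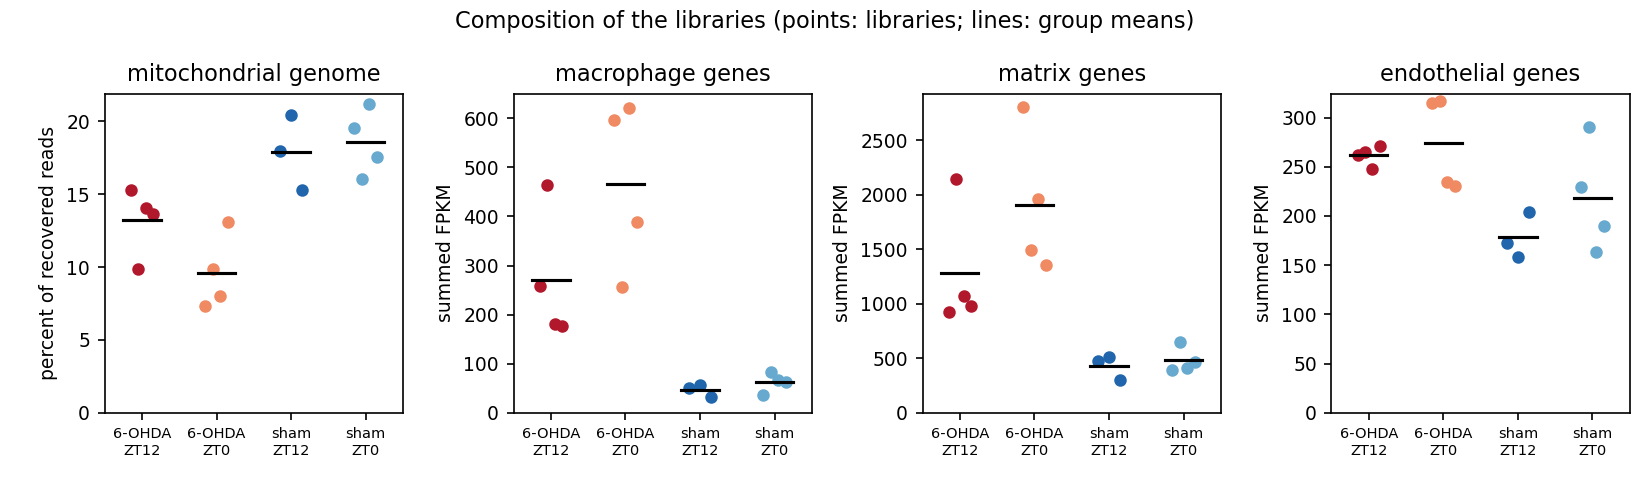
Composition of the 15 wild-type libraries by group: percent of recovered reads from the mitochondrial genome, and summed FPKM of the macrophage, matrix and endothelial gene lists. Points are libraries and lines group means; for macrophage genes all 6-OHDA libraries lie at 177.2 FPKM or more, above the sham libraries at 31.5 to 82.6 FPKM.

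Of the 10907 genes, 2 passed the interaction test (0.0183% at a Benjamini-Hochberg adjusted p under 0.05, limma). Both were genes of endothelial cells, Klf2 and Apold1, and for both the 6-OHDA muscle was higher at ZT12 relative to ZT0 than sham muscle was. At an unadjusted p under 0.05 stood 607 genes (5.57%), close to the share that the threshold itself gives, with 381 (3.49%) higher and 226 (2.07%) lower. Where counts of a gene list are given below, they count members at an unadjusted p under 0.05 and are set against these shares.

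Klf2 encodes a zinc finger factor that laminar blood flow induces in endothelial cells and that keeps the vessel wall quiescent. It lies on the plus strand of chromosome 8 at 72319033 to 72321656 (GRCm38). In 6-OHDA muscle it had 19.7, 19.2, 21.0 and 11.0 FPKM at ZT12 and 13.7, 9.91, 11.6 and 9.36 FPKM at ZT0. In sham muscle it had 7.39, 7.79 and 6.89 FPKM at ZT12 and 20.6, 15.9, 23.8 and 19.6 FPKM at ZT0. The 2 sham groups did not overlap and the ZT12 group was the lower one, while in 6-OHDA muscle the ZT12 group was the higher one and overlapped ZT0 through replicate 8 alone. The log2 time difference was 0.64 ± 0.185 in 6-OHDA muscle (1.56-fold higher at ZT12) and -1.43 ± 0.200 in sham muscle (SE, 2.69-fold lower at ZT12). The interaction was 2.07 ± 0.272 (SE), with a 95% confidence interval of 1.49 to 2.65 and a limma adjusted p of 0.0138.

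Apold1 encodes a membrane protein of endothelial cells that is induced as an early response gene and bears on vessel permeability. It lies on the plus strand of chromosome 6 at 134981718 to 134986836. It had 2.85, 3.72, 4.72 and 2.14 FPKM in 6-OHDA ZT12 and 2.46, 2.03, 1.91 and 1.94 FPKM in 6-OHDA ZT0. Sham muscle had 0.626, 1.40 and 1.05 FPKM at ZT12 and 3.37, 3.65, 3.16 and 4.48 FPKM at ZT0. Sham ZT12 was thus the lowest of the 4 groups and overlapped none of them, and the 2 groups of 6-OHDA muscle overlapped. The log2 time difference was 0.63 ± 0.240 in 6-OHDA muscle and -1.89 ± 0.259 in sham muscle (SE), and the interaction was 2.52 ± 0.353 (SE; 95% interval 1.77 to 3.27; limma adjusted p = 0.0154).

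The calls of both genes were lost in several settings. On log2(FPKM + 1) both passed, with interactions of 1.92 for Klf2 and 1.68 for Apold1. Left-out libraries moved Klf2 between 1.97 and 2.28 and Apold1 between 2.20 and 2.78, and neither passed without replicate 2 of 6-OHDA ZT0, replicate 4 of sham ZT0 or replicate 7 of sham ZT12 (adjusted p 0.0519 to 0.0591). Apold1 alone was also lost without replicate 3 of 6-OHDA ZT0, without replicate 6 of 6-OHDA ZT12 and with age as a covariate. Both were lost with the spread pooled over wild-type and RE-RE groups and with libraries scaled by recovered reads, where their interactions were 1.92 and 2.37 (limma adjusted p = 0.130 for each).

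The promoter windows of both genes, and that of Nr4a2, are shown because these genes have the 3 largest interactions among those of smallest p. Each runs from 250 bases before to 50 after the RefSeq start of GRCm38.p6, in the direction of the gene, and capitals mark the core TGACG of the cAMP response element (CRE), to which CREB binds, on either strand. Klf2 is chr8:72318812-72319111 on the plus strand, Apold1 chr6:134981751-134982050 on the plus strand and Nr4a2 chr2:57123954-57124253 on the minus strand. The Apold1 window lies inside the gene span given above, which begins further upstream. Bases before that upstream end are not shown.
Klf2: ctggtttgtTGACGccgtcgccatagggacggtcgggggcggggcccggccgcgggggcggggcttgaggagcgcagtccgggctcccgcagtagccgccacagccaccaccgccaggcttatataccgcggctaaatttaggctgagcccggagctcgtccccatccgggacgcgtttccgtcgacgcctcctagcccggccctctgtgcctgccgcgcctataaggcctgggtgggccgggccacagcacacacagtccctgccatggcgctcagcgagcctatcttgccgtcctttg
Apold1: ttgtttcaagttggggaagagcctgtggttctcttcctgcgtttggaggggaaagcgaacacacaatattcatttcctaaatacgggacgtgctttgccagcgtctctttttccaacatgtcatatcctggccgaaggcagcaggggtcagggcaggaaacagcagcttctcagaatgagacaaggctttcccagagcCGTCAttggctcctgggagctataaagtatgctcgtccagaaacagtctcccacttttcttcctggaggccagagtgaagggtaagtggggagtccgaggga
Nr4a2: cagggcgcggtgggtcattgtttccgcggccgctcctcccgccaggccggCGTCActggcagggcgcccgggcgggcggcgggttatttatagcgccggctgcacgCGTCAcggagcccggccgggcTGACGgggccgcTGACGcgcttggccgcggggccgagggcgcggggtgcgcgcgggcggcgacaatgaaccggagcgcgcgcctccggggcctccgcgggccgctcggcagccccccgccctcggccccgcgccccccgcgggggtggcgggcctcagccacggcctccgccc
The Klf2 window held 1 core at -241, the Apold1 window 1 at -52 and the Nr4a2 window 4 at -200, -144, -123 and -111, counted from the start site. Of all 32851 promoter windows 20.8% held such a core on either strand. None of these windows held the full site TGACGTCA (1.79% of all windows, and each full site also holds a core), the E-box CACGTG to which BMAL1 binds (7.15%) or the CArG box of serum response factor (1.63%). A match of letters is a description and not a binding site.

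**Figure D2:**
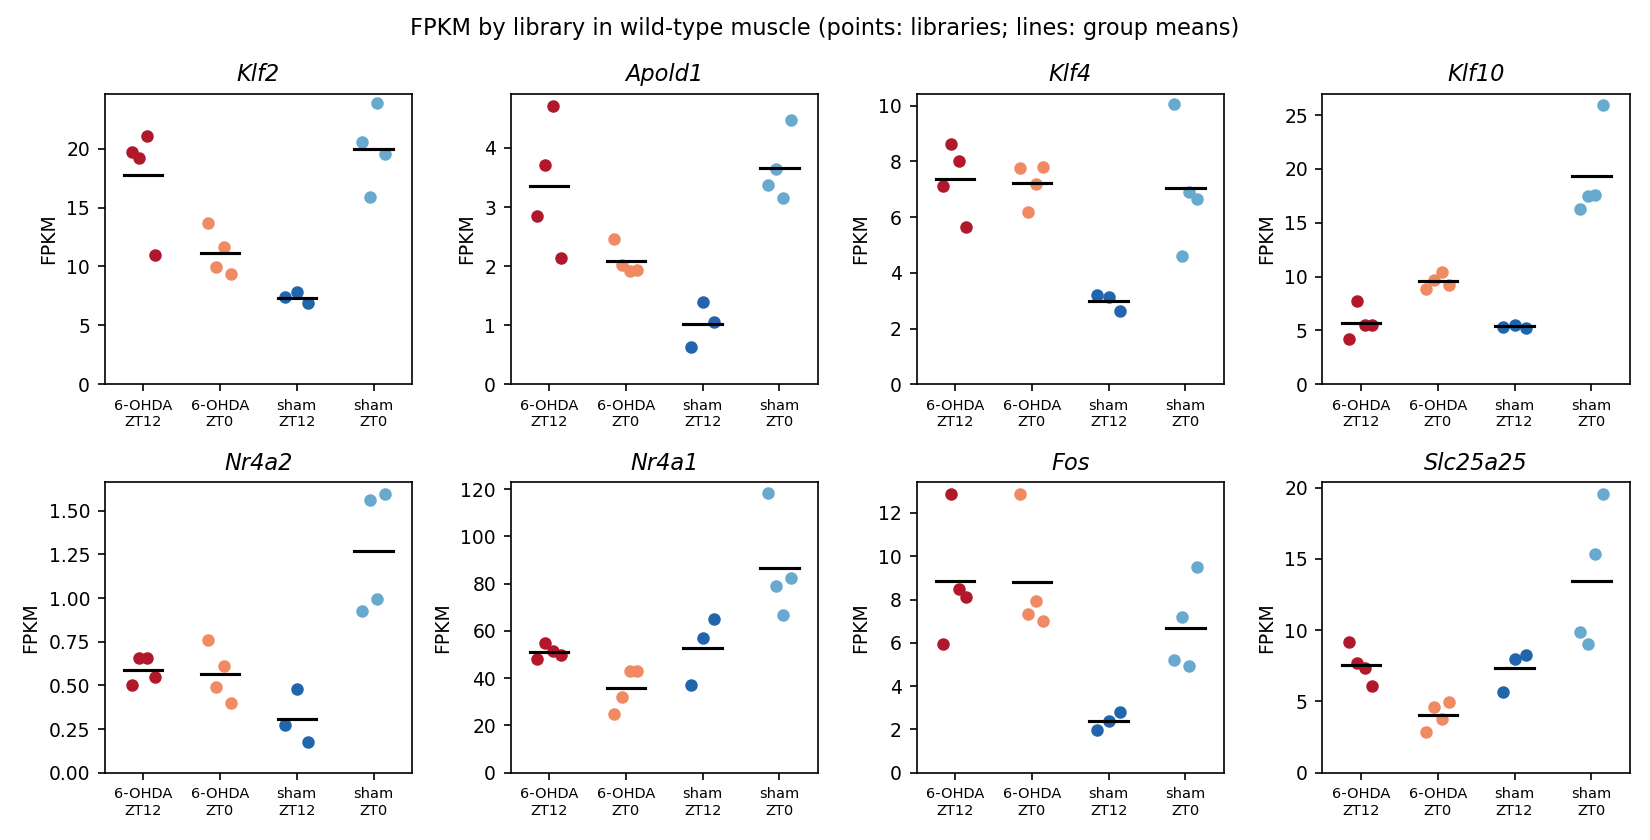
FPKM of 8 genes with an interaction of small p in each of the 15 wild-type libraries, by group; points are libraries and lines group means. In Klf2, Apold1, Klf4, Nr4a2 and Fos the sham ZT12 group has the lowest mean (Klf2 6.89 to 7.79 FPKM), while in Klf10, Nr4a1 and Slc25a25 the sham ZT0 group stands above the rest on its mean.

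The next genes by p did not pass. Slc25a25, a mitochondrial carrier of ATP-Mg and phosphate, had 9.14, 7.71, 7.37 and 6.07 FPKM in 6-OHDA ZT12, 2.87, 4.63, 3.78 and 4.97 FPKM in 6-OHDA ZT0, 5.68, 8.01 and 8.29 FPKM in sham ZT12 and 9.88, 9.06, 15.3 and 19.6 FPKM in sham ZT0. The times did not overlap in either treatment, and the order was opposite, with ZT12 the higher in 6-OHDA muscle and ZT0 the higher in sham muscle. Its interaction was 1.74 ± 0.343 (SE; limma adjusted p = 0.288), and its exons overlap those of Naif1 on the opposite strand, whose reads cannot be separated if counting ignored strand. Shisa2, an endoplasmic reticulum protein, had an interaction of 0.82 ± 0.171, and Cuedc1, a ubiquitin-binding protein, 0.83 ± 0.175 (SE; adjusted p = 0.288 for both). Cradd, an adaptor of cell death signalling, had 0.85, Triobp, an actin-binding protein, 0.79, and the homeobox gene Pknox2 0.78. In 5 of these 6 genes, Triobp being the exception, 6-OHDA muscle was higher at ZT12 than at ZT0 on the mean and sham muscle was lower.

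None of the genes with a negative interaction passed. Cda, cytidine deaminase, had 0.925, 1.07, 0.859 and 1.06 FPKM in 6-OHDA ZT12, 1.34, 1.33, 1.87 and 0.841 FPKM in 6-OHDA ZT0, 1.95, 2.82 and 1.90 FPKM in sham ZT12 and 1.14, 0.517, 0.751 and 0.899 FPKM in sham ZT0. Sham ZT12 was above every other library, and the interaction was -1.86 ± 0.366 (SE; limma adjusted p = 0.288), and -1.05 on log2(FPKM + 1). Tmem9, a lysosomal membrane protein, had -0.83 ± 0.177 (adjusted p = 0.304). Lmod2, a leiomodin that builds the thin filaments of the sarcomere, had 142.7, 164.8, 176.3 and 205.6 FPKM in 6-OHDA ZT12, 125.1, 92.8, 167.6 and 72.9 FPKM in 6-OHDA ZT0, 165.4, 182.4 and 174.0 FPKM in sham ZT12 and 57.5, 41.9, 36.6 and 54.9 FPKM in sham ZT0. The ZT12 groups overlapped and the treatments were apart at ZT0, where every 6-OHDA library was above every sham library (interaction -1.24 ± 0.314 SE, adjusted p = 0.463). Nceh1, a cholesterol ester hydrolase, showed the same arrangement, with 4.04 to 5.52 FPKM in 6-OHDA ZT0 and 1.93 to 3.47 FPKM in sham ZT0 (interaction -1.05 ± 0.281). The remaining genes of smallest p on the negative side were Vash2 (-1.25, and -0.65 on log2(FPKM + 1)), the sulfiredoxin Srxn1 (-0.73), Manf of the endoplasmic reticulum (-0.64), the corepressor Nrip1 (-0.62), Pibf1 (-0.58) and the ubiquitin ligase Rfwd3 (-0.54, and -0.36 on log2(FPKM + 1)).

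**Figure D3:**
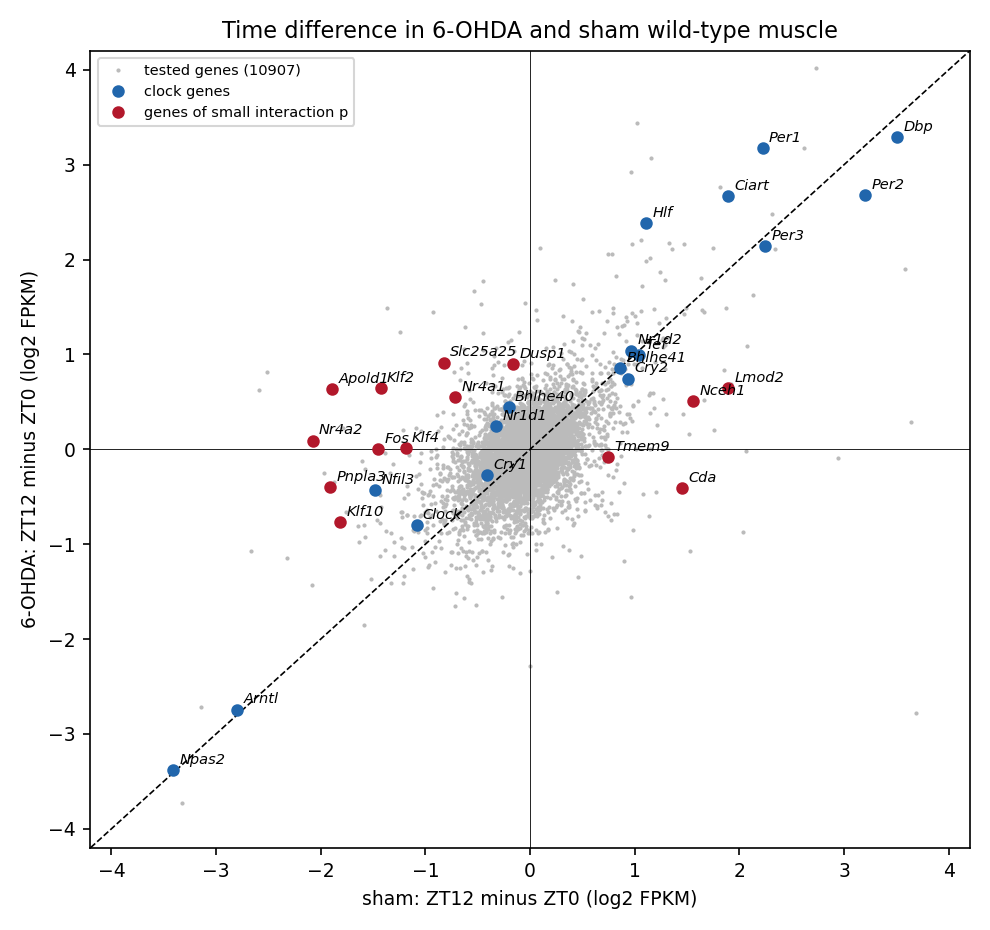
ZT12 minus ZT0 difference (log2 FPKM) in 6-OHDA muscle against the same in sham muscle for the 10907 tested genes, with 2 beyond the axes. Among clock genes (blue), Arntl (interaction 0.05) and Tef (-0.05) lie near the dashed line of equal difference. Others lie off it, such as Hlf (1.28), Nfil3 (1.05) and Per1 (0.95). Klf2 and Apold1 are red, with other genes of small p. Both lie at 0.64 and 0.63 on the 6-OHDA axis and at -1.43 and -1.89 on the sham axis.

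Genes of endothelial flow response and barrier function were taken as a list of 17 tested genes, which holds Klf2 and Apold1. At an unadjusted p under 0.05 stood 6 higher and 0 lower members, against 3.49% and 2.07% of all genes, and the median interaction of the list was 0.32, against 0.01 over all genes tested. Klf4, the partner of Klf2 in the response to flow, had 7.13, 8.64, 8.02 and 5.64 FPKM in 6-OHDA ZT12, 7.77, 6.18, 7.17 and 7.80 FPKM in 6-OHDA ZT0, 3.21, 3.13 and 2.63 FPKM in sham ZT12 and 10.1, 4.62, 6.88 and 6.66 FPKM in sham ZT0. Sham ZT12 was below every other library and the other 3 groups overlapped (interaction 1.20 ± 0.276 SE, limma adjusted p = 0.342). S1pr1, the receptor for sphingosine 1-phosphate that tightens endothelial junctions, had 24.1, 20.3, 20.6 and 17.5 FPKM in 6-OHDA ZT12, 12.9, 14.5, 12.2 and 12.4 FPKM in 6-OHDA ZT0, 12.6, 15.1 and 16.9 FPKM in sham ZT12 and 13.0, 16.9, 10.7 and 18.4 FPKM in sham ZT0. Its 6-OHDA ZT12 group stood above 6-OHDA ZT0, while the sham times overlapped (0.62 ± 0.228). The water channel Aqp1 had an interaction of 0.67 and Nos3, the endothelial nitric oxide synthase, 0.57, whereas Edn1 (0.32), Thbd (0.02), Adm (-0.03) and Plaur (-0.60) had an unadjusted p above 0.05.

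Markers of endothelial identity were tested beside this. Of 20, 0 reached an unadjusted p under 0.05 in either direction, although 16 were above 0 and the median was 0.28. Pecam1, an adhesion molecule of all endothelium, averaged 27.6 ± 0.982 FPKM in 6-OHDA ZT12, 29.2 ± 3.27 FPKM in 6-OHDA ZT0, 16.1 ± 1.08 FPKM in sham ZT12 and 17.2 ± 4.26 FPKM in sham ZT0 (SD, n = 4, 4, 3 and 4), with an interaction of -0.02 ± 0.220 (SE). Cdh5, the cadherin of endothelial junctions, had 0.29 and Emcn, a sialomucin of capillaries and veins, 0.41 (95% interval -0.01 to 0.83). Summed over the list, endothelial genes held 247.6 to 271.5 FPKM in 6-OHDA ZT12, 230.2 to 316.6 FPKM in 6-OHDA ZT0, 158.7 to 204.5 FPKM in sham ZT12 and 163.2 to 290.7 FPKM in sham ZT0. The 13 markers of smooth muscle and pericytes had a median of 0.07 and 0 members at an unadjusted p under 0.05.

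Of the adrenergic and cAMP genes themselves, 30 were tested, with 1 higher and 1 lower and a median of -0.01. Pde7a, a phosphodiesterase that degrades cAMP, was the higher member, with an interaction of 0.51 ± 0.190 (SE). Gnas, which encodes the stimulatory G protein subunit, was the lower one (-0.93 ± 0.414). It sits in an imprinted locus with overlapping transcripts of both strands, so its value is uncertain.

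Genes that CREB is known to induce had 6 higher and 0 lower of 15 tested, with a median of 0.66. Nr4a2, an orphan nuclear receptor, had 0.502, 0.655, 0.657 and 0.547 FPKM in 6-OHDA ZT12, 0.758, 0.491, 0.613 and 0.400 FPKM in 6-OHDA ZT0, 0.273, 0.479 and 0.174 FPKM in sham ZT12 and 0.927, 1.56, 0.996 and 1.59 FPKM in sham ZT0. All 8 libraries of 6-OHDA muscle lay below sham ZT0, and the 2 times of 6-OHDA muscle overlapped (interaction 2.17 ± 0.444 SE, limma adjusted p = 0.288). The value depends on the scale for this low gene, and was 0.81 on log2(FPKM + 1). Its relative Nr4a1 had 48.0, 55.0, 51.5 and 49.7 FPKM in 6-OHDA ZT12, 24.9, 31.9, 43.1 and 42.8 FPKM in 6-OHDA ZT0, 37.0, 56.8 and 64.9 FPKM in sham ZT12 and 118.3, 79.2, 66.6 and 82.6 FPKM in sham ZT0. Here 6-OHDA ZT12 was above 6-OHDA ZT0 and sham ZT0 above sham ZT12, without overlap (1.27 ± 0.303 SE, adjusted p = 0.371). Nr4a3, the other member of the family, had 0.35 ± 0.708.

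Dusp1, a phosphatase that switches off MAP kinases, had 48.7, 56.7, 51.9 and 42.2 FPKM in 6-OHDA ZT12, 25.2, 28.8, 27.4 and 25.5 FPKM in 6-OHDA ZT0, 23.9, 35.7 and 38.0 FPKM in sham ZT12 and 35.2, 30.0, 36.3 and 42.2 FPKM in sham ZT0. The 6-OHDA ZT12 group was the highest on its mean and the sham times overlapped (interaction 1.06 ± 0.211 SE, limma adjusted p = 0.288). Id1, an inhibitor of helix-loop-helix factors, had 1.33 and Gem, a small GTPase, 0.75. Per1 (0.95) was the remaining higher member of the CREB list and is counted among the clock repressors too. The 3 members of the CREB list below 0 were Pde4d (-0.48), Rgs2 (-0.41) and Arrdc3 (-0.31). Sik1, a kinase that restrains CREB coactivators, had 0.66 ± 0.393, and the coactivator Ppargc1a (0.00 ± 0.231) and the CREB relative Crem (0.02 ± 0.196) had interactions well within their standard errors of 0.

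Immediate early genes, which cells transcribe within minutes of a stimulus, had 7 higher and 0 lower of 19 tested, with a median of 0.41. Klf4 and Dusp1 are counted in this list too. Fos, a subunit of the AP-1 factor, had 5.93, 12.9, 8.49 and 8.11 FPKM in 6-OHDA ZT12, 12.9, 7.35, 7.93 and 7.01 FPKM in 6-OHDA ZT0, 1.96, 2.38 and 2.82 FPKM in sham ZT12 and 5.20, 7.17, 4.94 and 9.49 FPKM in sham ZT0. The 3 libraries of sham ZT12 were again the lowest and did not overlap the others (interaction 1.45 ± 0.369 SE, limma adjusted p = 0.482). Ier2 had 8.10, 8.77, 8.28 and 8.14 FPKM in 6-OHDA ZT12, 10.9, 8.26, 9.67 and 6.50 FPKM in 6-OHDA ZT0, 4.16, 4.56 and 5.01 FPKM in sham ZT12 and 7.97, 10.5, 7.90 and 7.71 FPKM in sham ZT0, the same arrangement (0.83 ± 0.206). Zfp36, which destabilises cytokine mRNA, had 0.84, Btg2 0.62 and Klf6 0.49, while Egr1 (0.81 ± 0.438), Junb (0.21), Jun (0.07), Atf3 (-0.07) and Myc (-0.14) had an unadjusted p above 0.05.

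Genes that glucocorticoids induce had 5 higher and 0 lower of 19 tested, with a median of 0.43. Fkbp5, a chaperone that buffers the glucocorticoid receptor, had 6.33, 6.34, 3.15 and 4.59 FPKM in 6-OHDA ZT12, 1.47, 1.37, 1.54 and 2.25 FPKM in 6-OHDA ZT0, 3.25, 5.39 and 4.60 FPKM in sham ZT12 and 2.76, 2.86, 2.13 and 5.12 FPKM in sham ZT0. The groups at ZT12 overlapped, and 6-OHDA ZT0 was the lowest on its mean (interaction 1.09 ± 0.397 SE, limma adjusted p = 0.809). Klf15, a regulator of amino acid and lipid use, had 16.1, 11.9, 14.3 and 16.1 FPKM in 6-OHDA ZT12, 4.51, 7.70, 6.29 and 10.3 FPKM in 6-OHDA ZT0, 13.7, 21.8 and 16.9 FPKM in sham ZT12 and 17.3, 13.5, 14.4 and 16.8 FPKM in sham ZT0. Only 6-OHDA ZT0 stood apart among these 4 groups (0.92 ± 0.304). Tsc22d3, also called Gilz, had 0.86 and Errfi1, a brake on the EGF receptor, 0.72. Arrdc2 averaged 35.7 ± 9.38 FPKM in 6-OHDA ZT12, 2.17 ± 0.386 FPKM in 6-OHDA ZT0, 58.3 ± 16.7 FPKM in sham ZT12 and 10.1 ± 7.70 FPKM in sham ZT0 (SD, n = 4, 4, 3 and 4; interaction 1.28 ± 0.511 SE).

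In the core clock, no gene passed the interaction test. Arntl had 1.73, 1.23, 1.67 and 1.27 FPKM in 6-OHDA ZT12, 9.31, 9.12, 10.6 and 10.3 FPKM in 6-OHDA ZT0, 1.94, 1.94 and 2.22 FPKM in sham ZT12 and 15.1, 14.4, 11.7 and 15.7 FPKM in sham ZT0. Both treatments were lower at ZT12, with log2 differences of -2.74 in 6-OHDA muscle and -2.80 in sham muscle, and 6-OHDA libraries were below sham libraries at each time. The interaction of 0.05 ± 0.184 (SE) has a 95% interval of -0.34 to 0.44. Npas2 had 0.02, with a wide interval of -1.02 to 1.07, Clock had 0.28 (-0.12 to 0.68) and Rora 0.13. Of the 5 activators tested, 0 reached an unadjusted p under 0.05.

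Of 11 repressors, 5 were higher at an unadjusted p under 0.05 and 0 lower, with a median of 0.14. Per1, the period gene that also answers CREB and glucocorticoids directly, had 17.9, 20.8, 15.9 and 16.1 FPKM in 6-OHDA ZT12, 2.64, 2.14, 1.64 and 1.54 FPKM in 6-OHDA ZT0, 12.6, 17.2 and 21.1 FPKM in sham ZT12 and 2.80, 3.13, 3.39 and 5.36 FPKM in sham ZT0. The treatments overlapped at ZT12 and 6-OHDA muscle was the lower at ZT0, without overlap (interaction 0.95 ± 0.312 SE, limma adjusted p = 0.779). Per2 had -0.52 (-1.12 to 0.07; -0.21 on log2(FPKM + 1)) and Per3 -0.11 (-0.71 to 0.50), so the 3 period genes did not share a sign. Nfil3, a repressor at D-box sites, had 7.48, 6.14, 5.52 and 6.31 FPKM in 6-OHDA ZT12, 7.99, 6.40, 13.8 and 7.46 FPKM in 6-OHDA ZT0, 4.46, 5.73 and 5.55 FPKM in sham ZT12 and 19.9, 11.8, 11.1 and 17.3 FPKM in sham ZT0 (1.05 ± 0.325). Its sham times were apart and its 6-OHDA times overlapped. Ciart (0.78, and 0.34 on log2(FPKM + 1)), Bhlhe40 (0.64) and Nr1d1 (0.57, and 0.34 with age as a covariate) made up the 5, and Nr1d1 overlaps Thra on the opposite strand. Cry1 (0.14), Cry2 (-0.19), Nr1d2 (0.07) and Bhlhe41 (0.00) had 95% intervals that reached no further than 0.64 from 0.

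**Figure D4:**
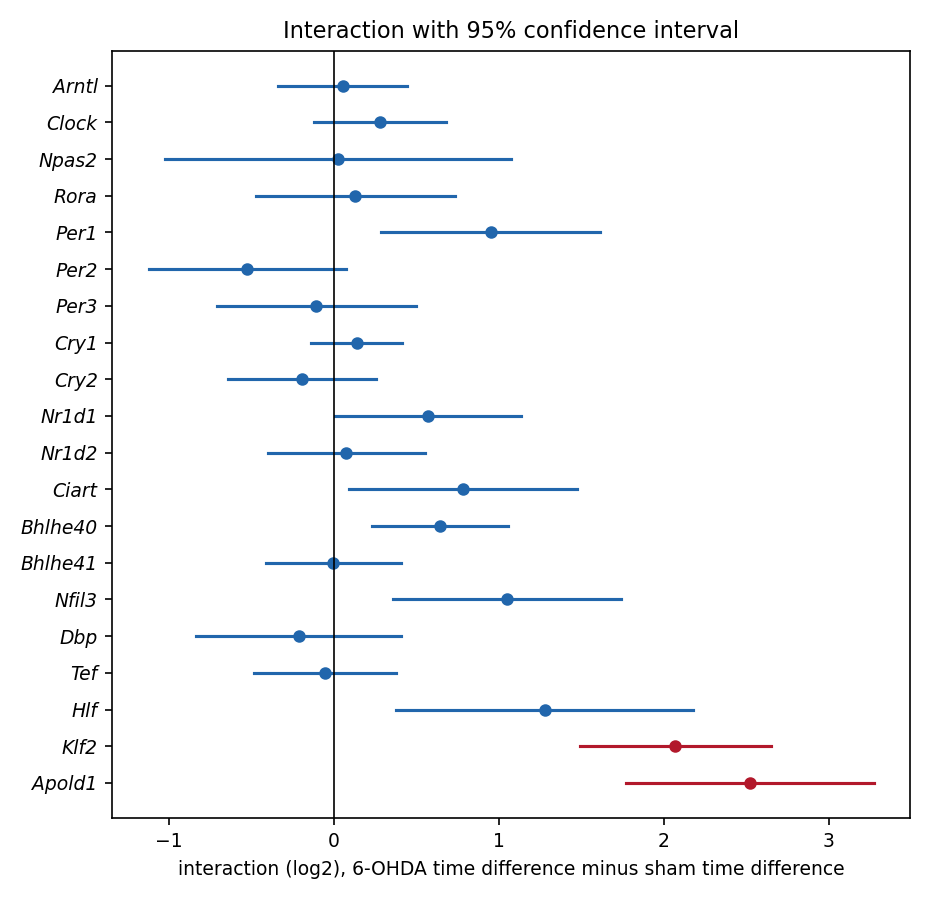
Interaction (log2, 6-OHDA time difference minus sham time difference) with its 95% confidence interval for 18 clock genes (blue) and the 2 genes past the test (red). The interval of Arntl runs from -0.34 to 0.44, and those of Klf2 (1.49 to 2.65) and Apold1 (1.77 to 3.27) lie above 1.

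Among clock outputs 4 of 19 were higher and 0 lower, with a median of 0.02. Dbp, a D-box activator, was higher at ZT12 without overlap in both treatments, at 27.2 to 48.9 FPKM in 6-OHDA ZT12, 3.23 to 4.07 FPKM in 6-OHDA ZT0, 30.4 to 44.2 FPKM in sham ZT12 and 2.36 to 4.42 FPKM in sham ZT0 (interaction -0.21; 95% interval -0.84 to 0.41). Tef, of the same family, had -0.05 (-0.48 to 0.37). Hlf, the third of them, had 2.00, 1.42, 1.54 and 1.95 FPKM in 6-OHDA ZT12, 0.291, 0.298, 0.300 and 0.397 FPKM in 6-OHDA ZT0, 2.92, 1.81 and 1.57 FPKM in sham ZT12 and 1.37, 0.468, 1.24 and 0.948 FPKM in sham ZT0, where 6-OHDA ZT0 was the lowest group (interaction 1.28 ± 0.424 SE, and 0.41 on log2(FPKM + 1)). The other 3 were Inmt, a methyltransferase (2.42 ± 0.946, and 0.85 on log2(FPKM + 1)), the glycolytic regulator Pfkfb3 (1.35) and the glycogen-targeting phosphatase subunit Ppp1r3c (1.17).

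Metabolic lists had few members at an unadjusted p under 0.05. Ppp1r3c had 71.8, 39.2, 50.5 and 28.3 FPKM in 6-OHDA ZT12, 70.3, 82.5, 103.7 and 162.1 FPKM in 6-OHDA ZT0, 31.9, 36.6 and 27.5 FPKM in sham ZT12 and 169.0, 94.9, 196.3 and 203.9 FPKM in sham ZT0. In both treatments ZT12 was the lower time, with an overlap in 6-OHDA muscle and none in sham muscle. Of 18 genes of glycogen and glucose handling 2 were higher (Ppp1r3c and Txnip, a brake on glucose uptake) and 0 lower, of 18 glycolytic genes 2 higher (Pfkfb3 and Ldhb) and 0 lower, and of 21 genes of fatty acid use 0 in either direction (median 0.05). In lipid synthesis 1 of 16 was higher, Pnpla3, a lipid droplet protein, with 3.46, 2.09, 2.44 and 1.6 FPKM in 6-OHDA ZT12, 2.24, 4.39, 2.74 and 3.16 FPKM in 6-OHDA ZT0, 2.27, 3.04 and 2.32 FPKM in sham ZT12 and 10.4, 11.2, 6.41 and 10.8 FPKM in sham ZT0 (1.51 ± 0.356 SE, limma adjusted p = 0.371). Sham ZT0 stood above the other 3 groups, which overlapped one another. Heat shock and cold-inducible genes, a readout of temperature, had 0 of 19 in either direction and a median of -0.01. In the atrophy list 1 of 13 was higher, the ubiquitin ligase Fbxo32 (1.01 ± 0.418), and 2 were lower, Fbxo30 (-0.44) and Gabarapl1 (-0.25).

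Several lists that set 6-OHDA muscle apart from sham muscle had medians away from 0, but not all did. Schwann cell genes had a median 6-OHDA minus sham difference of 0.93 at ZT12 and 0.69 at ZT0. Their median interaction was 0.02. All 13 protein-coding genes of the mitochondrial genome had a positive interaction, with 4 higher and a median of 0.79. mt-Nd4l had 837, 404, 844 and 900 FPKM in 6-OHDA ZT12 and 52.8, 187, 119 and 604 FPKM in 6-OHDA ZT0, and its interaction of 2.03 has a standard error of 0.901. All 21 matrix genes had a negative interaction, with 0 at an unadjusted p under 0.05 and a median of -0.39. Of 18 macrophage genes 16 were negative, with 0 higher, 1 lower (Mrc1, -0.64 ± 0.294) and a median of -0.36. Genes induced by denervation had 13 of 14 below 0, a median of -0.70 and 2 lower members, Chrna1, a subunit of the acetylcholine receptor (-1.16 ± 0.368), and the factor Runx1 (-1.20 ± 0.408, and -0.60 on log2(FPKM + 1)). Genes of regenerating muscle had a median of -0.50 with 0 of 13 at an unadjusted p under 0.05.

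The 2 libraries of 6-OHDA muscle named above for their mitochondrial share were left out in turn. Without replicate 6 of 6-OHDA ZT12 the number of genes at an unadjusted p under 0.05 was 1062, and without replicate 4 of 6-OHDA ZT0 it was 1046, against 607. The median of the matrix list ran between -0.76 and -0.22 over the 15 left-out libraries, that of macrophage genes between -0.69 and -0.12 and that of mitochondrial genes between 0.60 and 0.99. Library composition and the day-night difference cannot be told apart for these genes. Klf2 and Apold1 had interactions of 2.02 and 2.45 without replicate 6 of 6-OHDA ZT12, and of 1.99 and 2.49 without replicate 4 of 6-OHDA ZT0.

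**Figure D5:**
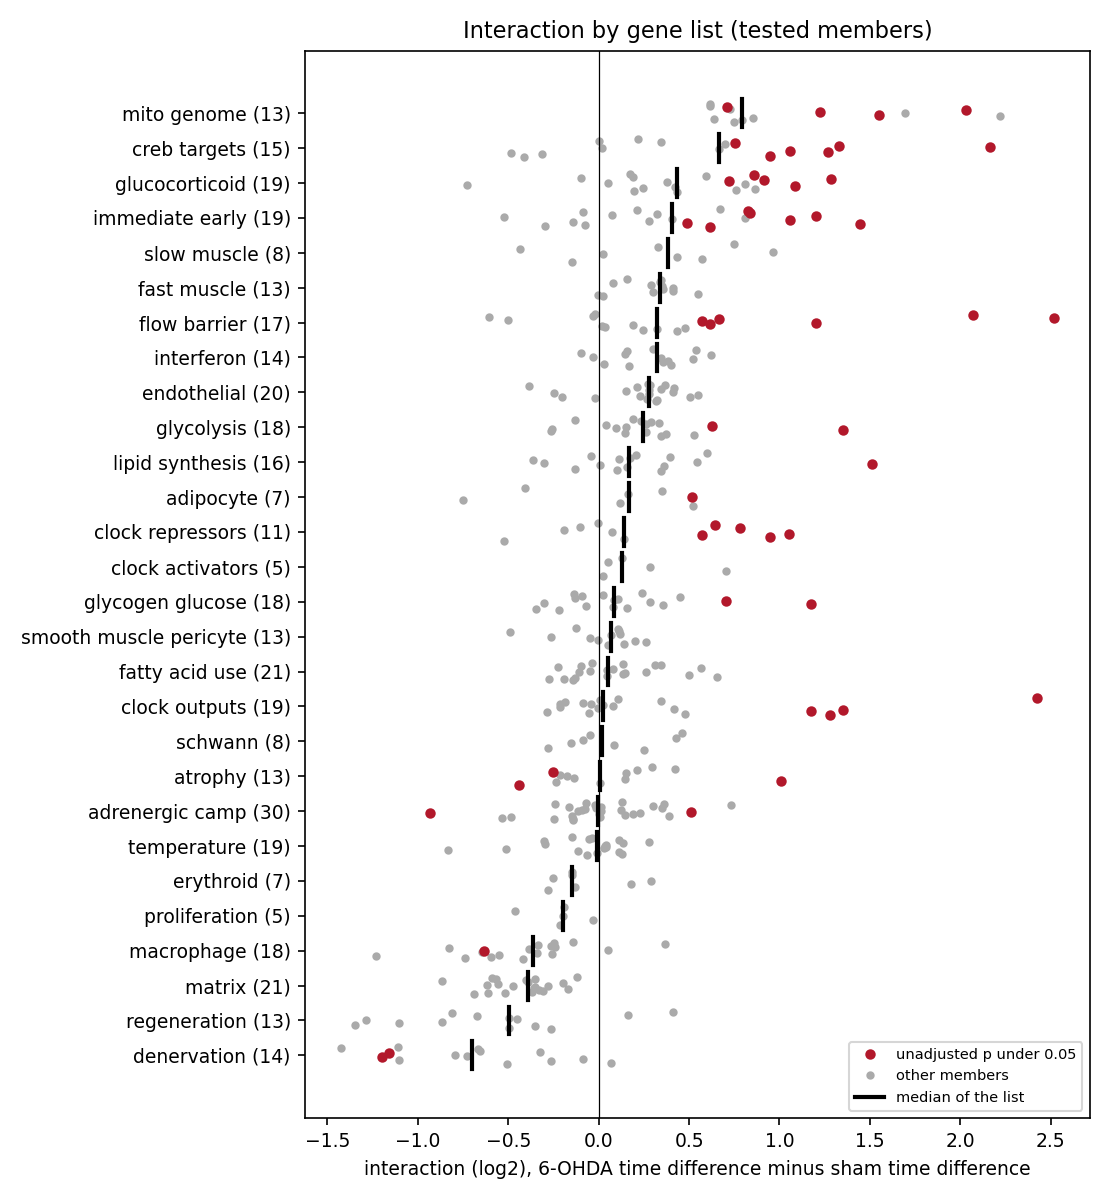
Interaction (log2) of the tested members of each gene list, in order of the list medians (black bars), with the number of tested members in parentheses. Red points have an unadjusted p under 0.05, 6 of 15 in the CREB target list and 0 of 21 in the matrix list.

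Genes with a day-night difference were chosen by the mean of the 6-OHDA and sham time differences, whose error shares almost nothing with that of the interaction (correlation -0.0769 from the group sizes). By this test 769 genes (7.05%) passed, 374 (3.43%) higher and 395 (3.62%) lower at ZT12 (limma, adjusted p under 0.05). Genes higher at ZT12 had a median log2 difference of 0.56 in 6-OHDA muscle and 0.53 in sham muscle, and those lower at ZT12 had -0.47 in 6-OHDA muscle and -0.58 in sham muscle. The sign of the difference was opposite between treatments in 6 of the 769, Apold1 among them. Differences of opposite sign cancel in the mean that chose these genes, so this count cannot show how often signs were kept. Over all 10907 genes the 2 time differences, which come from separate libraries, had a Pearson r of 0.52 and a Spearman rho of 0.41, as a description across genes.

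Of the 769 timed genes, 116 (15.1%) had an unadjusted interaction p under 0.05, against 5.57% of all genes. Both tests use the same spread of a gene, so a spread estimated too low favours a small p in both. This by itself can raise the share among timed genes. Among genes lower at ZT12, the fall was smaller in 6-OHDA muscle for 57 and larger for 8. Among genes higher at ZT12, the rise was larger in 6-OHDA muscle for 33 and smaller for 18. The second split turned round when libraries were scaled by recovered reads, with 19 larger and 45 smaller, while the first kept its direction with 33 smaller and 9 larger. That scaling moves the median interaction of all genes to -0.14, against 0.01 on the deposited scale. Klf10, a factor that follows the clock in many tissues, shows the first pattern, with 4.24, 7.69, 5.50 and 5.46 FPKM in 6-OHDA ZT12, 8.88, 9.72, 10.4 and 9.20 FPKM in 6-OHDA ZT0, 5.36, 5.55 and 5.26 FPKM in sham ZT12 and 16.3, 17.5, 17.6 and 25.9 FPKM in sham ZT0. Times did not overlap in either treatment, and only ZT0 separated 6-OHDA from sham muscle (interaction 1.05 ± 0.237 SE, limma adjusted p = 0.342).

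The design bounds the size of what it did not call. The 95% interval of the interaction had a median half-width of 0.43 log2 units and lay within -1 to 1 for 9161 genes (84.0%), and for 583 of the 769 timed genes (75.8%). It lay within -0.5 to 0.5 for 32.5% of all genes and 20.4% of timed ones. For most genes a change of the day-night difference by more than a factor of 2 is thus outside the interval, while smaller changes are not bounded in this way for many.

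In RE-RE muscle, with 2 libraries in each group, Klf2 had 11.7 and 14.4 FPKM in 6-OHDA ZT12, 11.3 and 9.10 FPKM in 6-OHDA ZT0, 6.62 and 13.0 FPKM in sham ZT12 and 3.88 and 14.2 FPKM in sham ZT0. The sham libraries of that genotype overlapped between the times. The RE-RE interaction was 0.04 ± 0.601 for Klf2 and -0.17 ± 0.628 for Apold1 (SE from the spread pooled over 8 groups, as for all RE-RE values here). The RE-RE interaction minus the wild-type interaction was -2.03 ± 0.746 for Klf2 and -2.69 ± 0.780 for Apold1 (SE), and neither passed (limma adjusted p = 0.962 for both, spread pooled over 8 groups). Nr4a2 had an RE-RE interaction of 1.91 ± 0.876 and Pnpla3 2.18 ± 0.596, on the same side as in wild-type muscle. Other named genes lay on the opposite side, such as Pfkfb3 (-1.96 ± 1.20), Hlf (-1.16 ± 0.871) and Vash2 (1.89 ± 1.06). Of the 607 genes at an unadjusted p under 0.05 in wild-type muscle, 299 (49.3%) had the same sign in RE-RE muscle, against 44.5% of all genes. Residuals within groups had a median SD over genes of 0.424 for RE-RE libraries, against 0.198 for wild-type ones, so the RE-RE values are the less precise. Their SEs, from the pooled spread, can therefore be too small.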

How the data were processed

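Total RNA of whole tibialis anterior muscle was sequenced as pairs of reads. The submitters' processing notes name HISAT2 (2.1.0) and the genome GRCm38, featureCounts (1.6.2), edgeR (3.30.0), and for read quality and trimming FastQC (0.11.8) and Trim Galore (0.5.0), with no order. The authors deposited 1 table of log2 FPKM for 14500 genes, which by its values is log2(FPKM + 0.01). Whether the counting used strand, and whether a factor between libraries was applied, is not given in the sources used here.

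FPKM values were taken back to the linear scale for the values printed. Gene classes, positions and exon lengths came from GENCODE M21. The deposited log2 values entered limma (3.58.1, under R 4.3.3) unchanged, with 1 mean for each of the 4 wild-type groups and eBayes with a trend (11 residual and 4.55 prior degrees of freedom). Contrasts were the interaction and the mean of both time differences, two-sided, with Benjamini-Hochberg adjustment over all 10907 genes and a threshold of 0.05. Genes below an FPKM of 1 in all but 1 library, noncoding RNAs and 65 IDs not in the annotation were left out. Confidence intervals are at 95%. The fit was tested on simulated data. Figures were drawn with matplotlib 3.10.9, and tables were made with pandas 2.3.3 and numpy 2.4.6 in python 3.11.15.

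Reads were recovered from the steps of low FPKM values and exon lengths; of values up to 20 reads, 88.1% to 94.4% were whole within 0.1 read in the wild-type libraries. The members, gene lists and rules were chosen with earlier results of these data known. Named are genes past the test, the 10 higher and 10 lower ones of smallest p whose group mean of log2 FPKM reached 1 somewhere, the clock genes, the gene of smallest p in each list with up to 3 more at an unadjusted p under 0.05, and the 5 largest interactions in each direction among timed genes. Values of some list members are not reported here, and they stay in the counts and medians. Further list members are given with their values and were chosen after these were seen. Promoter windows came from RefSeq on GRCm38.p6, which matched 49 of the 87 named genes. Exons of 25 of the 87 overlap a gene of the opposite strand in the annotation. Alternatives were another pseudocount, filter, gene class, scaling, count model, prior, spread, library weights, age, replicate block and leaving out each library.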

Additional observations from a re-analysis of the deposited data

Results flagged for a closer look

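The interaction of Klf2 (2.07) and that of Apold1 (2.52) stand out because the time difference of 6-OHDA muscle and that of sham muscle differed by a test of the difference itself. A single library stood apart from the others of its group, by the gap to its nearest neighbour over the range of the group, in 14 of 270 sets of values examined, where chance gives about 1 in 20. In 6-OHDA ZT12 replicate 6 was high for Sytl2 (0.858 FPKM), Gabarapl1 (24.0 FPKM), Mrc1 (4.70 FPKM) and Mmp2 (105 FPKM) and low for Ldhb (85.9 FPKM) and mt-Nd4l (404 FPKM). Replicate 8 of that group was low for Klf2 (11.0 FPKM, the others 19.2 to 21.0) and Errfi1 (10.7 FPKM), and replicate 5 was low for Rab15 (1.40 FPKM). Replicate 4 of 6-OHDA ZT0 was high for Hlf (0.397 FPKM). In sham ZT0 replicate 4 was high for Klf10 (25.9 FPKM), replicate 2 high for Ier2 (10.5 FPKM), replicate 3 low for Pnpla3 (6.41 FPKM) and replicate 1 low for Pibf1 (2.32 FPKM).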

How the results depend on the processing

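The interaction test passed 2 genes also with log2(FPKM + 1), without a filter, with a filter on the mean log2 FPKM (minimum 1), with all gene classes, with quantile or median-ratio scaling, and with a prior without a trend or a robust prior. It passed 0 genes with the spread pooled over all 8 groups (185 at an unadjusted p under 0.05), 0 with own totals of recovered reads (762) and 0 with limma-voom on recovered reads (715), 1 with age as a covariate and 109 with array weights (77 higher, 32 lower); the cause was not tested. Leaving out 1 library gave 0 to 5 genes: 5 without replicate 4 of 6-OHDA ZT0, 1 without replicate 3 of 6-OHDA ZT0 or replicate 6 of 6-OHDA ZT12, and 0 without replicate 2 of 6-OHDA ZT0 (660 at an unadjusted p under 0.05), replicate 4 of sham ZT0 (614) or replicate 7 of sham ZT12 (635). The mean time difference passed 769 genes, 293 with the pooled spread, 2097 with array weights and 560 to 1068 with a library left out. With the replicate block the interaction passed 2 genes. Same-numbered libraries had residual correlations of -0.183 to 0.286, and differently numbered ones -0.539 to 0.545. These values cannot show whether the numbers pair libraries. Ages of same-numbered sham and 6-OHDA libraries differed except for replicate 7. The block gives no mean time difference because each number stands at 1 time. No named interaction changed sign where it was called in the main test or in the other setting. Interactions near 0 did change sign between settings. Over the settings that kept all libraries, Arntl ran from -0.15 to 0.19 and Npas2 from -1.35 to 0.03. Own totals and limma-voom moved the median interaction of all genes to -0.145 and -0.143.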

Other observations

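Other lists had few members at an unadjusted p under 0.05. Interferon-response genes had 0 of 14 in either direction, with 12 above 0 and a median interaction of 0.32. Fast muscle genes had 0 of 13 and a median of 0.34, which was -0.08 after quantile normalization, and slow fibre genes had 0 of 8 and a median of 0.38 that ran between -0.15 and 0.91 with a library left out. Schwann cell genes had 0 of 8 (median 0.02), erythroid genes 0 of 7 (-0.15) and genes of proliferation 0 of 5 (-0.20). Of 7 adipocyte genes 1 was at an unadjusted p under 0.05, Fabp4, a fatty acid carrier, with an interaction of 0.51 ± 0.213 (SE). The 1 tested neutrophil gene, Mmp9, had -0.23 ± 1.86 (SE), and none of the listed lymphocyte genes entered the test.

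Among timed genes the largest positive interactions were those of Apold1, Inmt, Nr4a2, Odf3l2 and Cish. On log2(FPKM + 1) that of Odf3l2 was 0.40, against 1.96 on the deposited scale. Cish, an inhibitor of cytokine signalling, had 1.88, 0.907, 1.68 and 2.46 FPKM in 6-OHDA ZT12, 0.294, 0.192, 0.176 and 0.117 FPKM in 6-OHDA ZT0, 2.89, 1.85 and 0.839 FPKM in sham ZT12 and 1.41, 2.04, 0.226 and 0.442 FPKM in sham ZT0. Its times were apart in 6-OHDA muscle and overlapped in sham muscle (interaction 1.92 ± 0.849 SE, and 0.64 on log2(FPKM + 1)), and its exons overlap an antisense gene. On the negative side were Rab15 (-1.36, and -0.66 on log2(FPKM + 1)), Lmod2, Ibsp, Sytl2 (-1.08, and -0.51 on that scale) and Nceh1. Ibsp, a bone matrix protein, had an interaction of -1.21 ± 2.55 (SE), which was 0.25 on log2(FPKM + 1), with values in sham ZT0 of 6.05, 0.0796 and 0.0251 FPKM and the other library listed at 0.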
